A study of Mus musculus with 10 samples.

Results

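The genes described are 10 that encode proteins of the Z-disc and intercalated disc of heart muscle or respond to stretch: Fhl1, Fhl2, Csrp3, Nexn, Tcap, Xirp1, Xirp2, Flnc, Des and Actn2. They were chosen by name, with earlier results of these data known. Each had exactly 1 probe set with that gene as its single annotated symbol, so 10 of the 19938 genes with such a probe set are covered. RNA from the ventricles of 10 mice was hybridised to Affymetrix mouse gene arrays, 1 array per mouse, and the values are log2 signals. In 5 mice, titled PGC-1a-/-bf/f/MerCre, tamoxifen was injected at 2 months of age, at 50 mg/kg per day on 2 days; 5 mice titled PGC-1a-/- received sunflower seed oil alone. Hearts were collected 1 month later, at 3 months of age.

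All 10 mice carry the PGC-1a deletion, per the labels. The genotype field gives the tamoxifen group as lacking PGC-1b too and the vehicle group as having unaffected PGC-1b expression. PGC-1a and PGC-1b are transcriptional coactivators of mitochondrial genes, and MerCre is a Cre recombinase that acts after tamoxifen. The source names give the floxed PGC-1b alleles and MerCre to the vehicle mice as well, but the titles do not. The promoter that drives MerCre is not named in the sources used here. Tamoxifen, Cre activity and the labelled loss of PGC-1b lie in the same 5 mice and cannot be told apart. By the titles, the floxed alleles and MerCre itself also lie in those mice alone and cannot be separated from the rest. By its labels, the comparison asks how these genes differ in an adult ventricle when deletion of PGC-1b is added to that of PGC-1a.

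The signals of the targeted genes did not show their labelled deletion. Ppargc1b, the gene of PGC-1b, ranged from 9.65 to 9.90 in the vehicle-labelled arrays and from 9.93 to 10.15 in the tamoxifen-labelled arrays; its rise was 0.266 ± 0.061 (limma adjusted p = 0.00529). Ppargc1a, the gene of PGC-1a, ranged from 10.70 to 11.04 and from 10.95 to 11.58, well above the brightness filter at 6.53, and rose by 0.386 ± 0.095 (adjusted p = 0.00814). Where these probe sets lie with respect to the deleted exons was not known here, so they may check nothing. Directions below follow the labels. The tamoxifen-labelled array 2 was brighter than the rest, with its median at 7.31 where the other 9 ran from 7.18 to 7.24. Cardiomyocyte markers marked the tissue as heart muscle, with Actc1 at 14.56 and Mybpc3, the dimmest of the 12, at 12.57 in the vehicle-labelled mean. They do not tell ventricle from atrium, and atrial markers are given below. In all, 13957 genes were bright enough to test, and 1897 of them rose and 1155 fell at a limma adjusted p of 0.05. Higher genes made up 62.2% of these calls, and 49.6% without tamoxifen-labelled array 2.

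The Z-disc is the protein plate that anchors the actin filaments of neighbouring sarcomeres, and the intercalated disc joins cardiomyocytes end to end. Alpha-actinin crosslinks actin at the Z-disc, filamin C and nexilin bind actin there, and telethonin caps the end of titin. LIM domain proteins such as FHL1, FHL2 and MLP (gene Csrp3) bind titin or Z-disc proteins and are known as parts of the heart's stretch sensing. The Xin proteins (genes Xirp1 and Xirp2) bind actin at the intercalated disc, and desmin filaments link Z-discs to each other and to the cell membrane.

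Most of these genes were higher in the tamoxifen-labelled hearts. Of the 10 genes, all of which passed the filter on dim probe sets, 6 rose (Fhl1, Nexn, Xirp1, Flnc, Xirp2 and Actn2), 1 fell (Tcap) and 3 (Csrp3, Fhl2 and Des) did not pass the test. Over all genes tested, 21.9% were called, 13.6% higher and 8.28% lower. Because the 10 genes were chosen with earlier results of these data known, their counts beside such shares are no independent support. The median log2 fold change, always the tamoxifen-labelled mean minus the vehicle-labelled mean, was 0.225 over the 10 genes and 0.014 over all genes tested. In 5 of the 10 genes every tamoxifen-labelled value lay above every vehicle-labelled one, where 10.5% of all genes tested did so; in 0 they all lay below, where 6.12% of all did, and 16.6% of all genes had groups apart in either direction. A called rise of 1.5-fold or more was seen in 1 of the 10, Fhl1, and in 0.509% of all genes tested; with quantile normalization Fhl1 rose by 0.584 on the log2 scale, just under that fold. In whole ventricle, more RNA per cell and more cells of a type cannot be told apart.

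**Figure D1:**
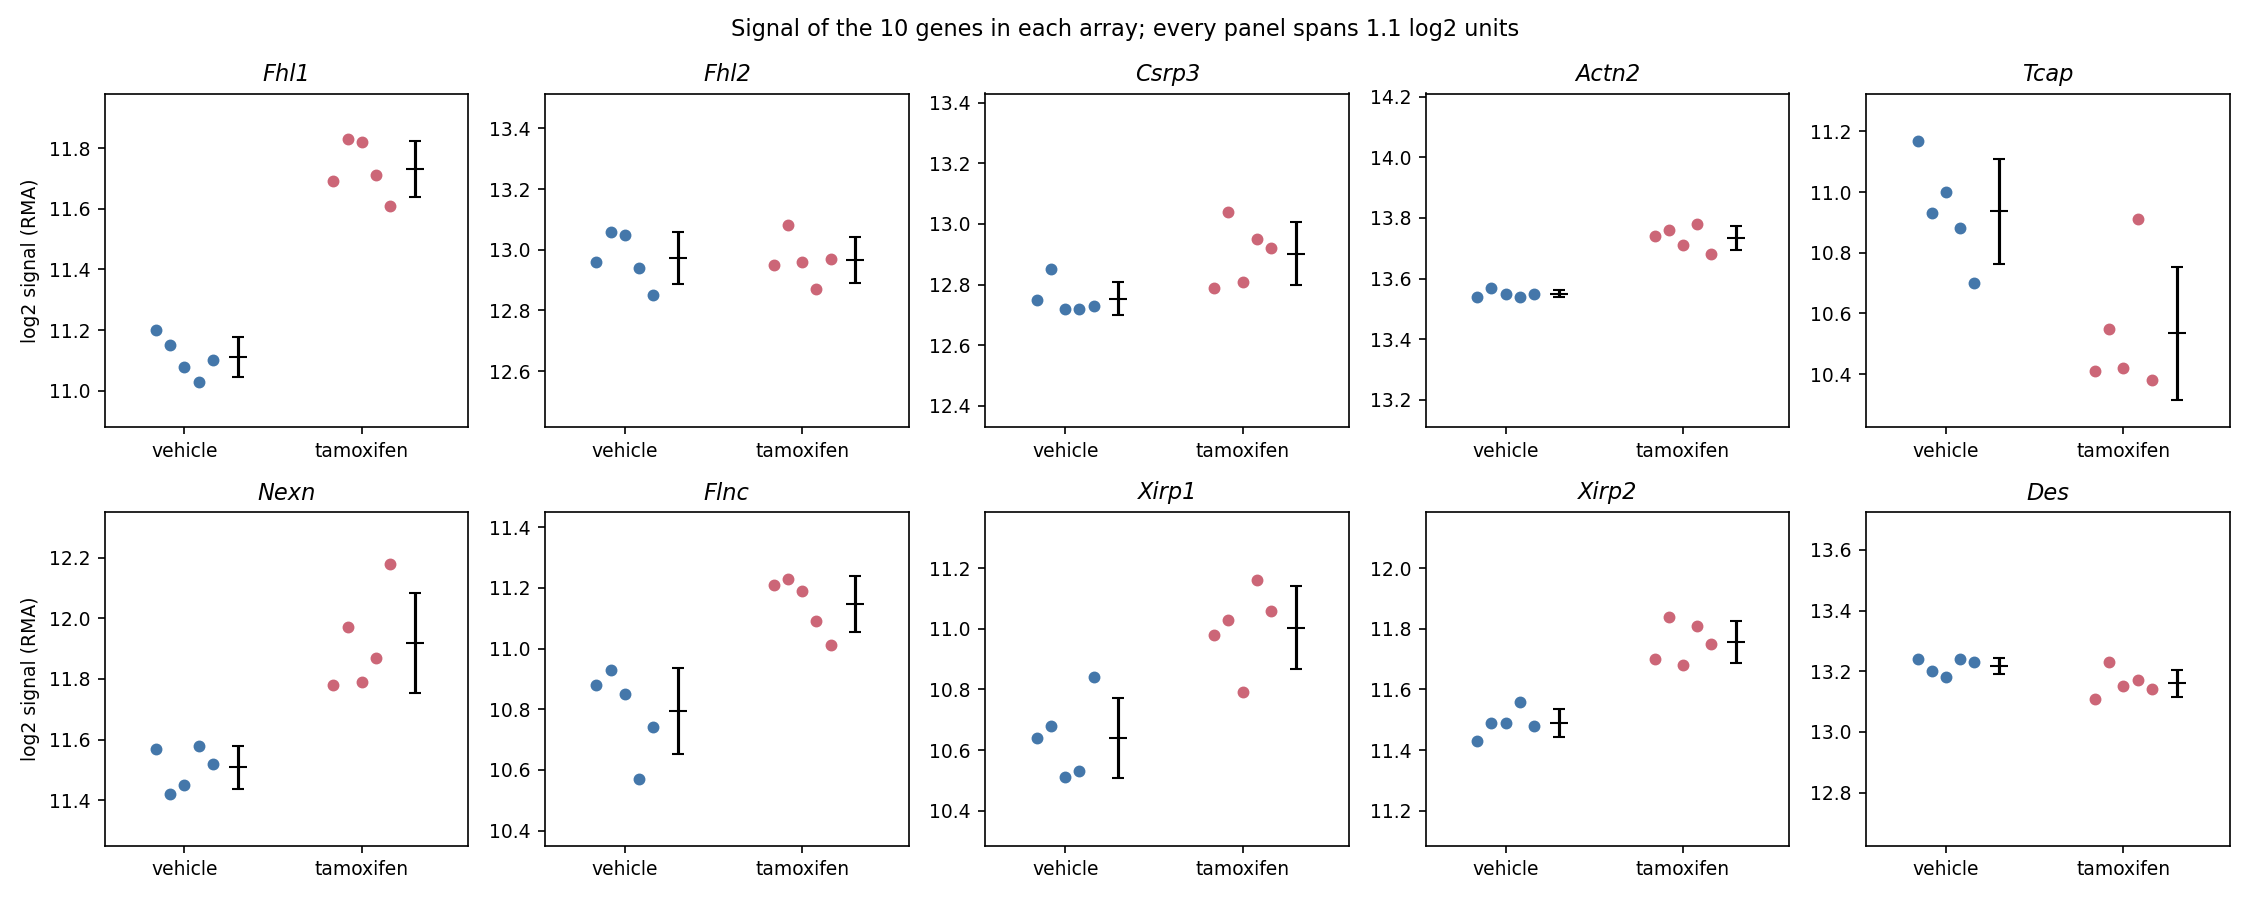
Log2 signal of each gene in the vehicle-labelled (blue) and tamoxifen-labelled (red) arrays, 1 point per mouse, with the group mean ± SD (n = 5) in black beside the points; all panels have the same span on the vertical axis. The groups do not overlap for Fhl1, Actn2, Nexn, Flnc and Xirp2, and the Tcap value of tamoxifen-labelled array 4 lies among the vehicle-labelled ones.

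Stretches of the promoters are given for 4 of the genes, because they set Fhl1, the gene that rose most, against its relative Fhl2 and show each match to a muscle motif in these windows. RefSeq windows (GRCm38.p6) of 250 bases before to 50 bases after a gene start were found for 7 of the 10 genes, 11 windows in all, and were searched on both strands for the CArG box, which serum response factor binds, for the MEF2 site, and for the M-CAT element CATTCC, which TEAD factors bind. The 150 bases upstream of the start are printed 5′ to 3′ on the strand of the gene, with matches in capitals.
Fhl1, chrX:56779533-56779682, plus strand: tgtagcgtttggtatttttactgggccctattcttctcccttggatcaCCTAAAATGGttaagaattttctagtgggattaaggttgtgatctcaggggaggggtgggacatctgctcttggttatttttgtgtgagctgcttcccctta
Fhl2 (first start), chr1:43196762-43196911, minus strand: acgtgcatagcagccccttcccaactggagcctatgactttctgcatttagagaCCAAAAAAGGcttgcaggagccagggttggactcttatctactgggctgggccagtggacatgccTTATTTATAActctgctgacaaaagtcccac
Fhl2 (second start), chr1:43163962-43164111, minus strand: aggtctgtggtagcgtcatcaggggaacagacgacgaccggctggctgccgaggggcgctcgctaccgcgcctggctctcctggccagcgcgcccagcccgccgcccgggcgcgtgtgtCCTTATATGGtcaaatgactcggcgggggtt
Xirp2, chr2:67445852-67446001, plus strand: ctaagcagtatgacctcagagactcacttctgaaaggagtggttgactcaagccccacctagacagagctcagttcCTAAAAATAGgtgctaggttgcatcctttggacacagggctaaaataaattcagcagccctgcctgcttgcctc
Flnc, chr6:29433106-29433255, plus strand: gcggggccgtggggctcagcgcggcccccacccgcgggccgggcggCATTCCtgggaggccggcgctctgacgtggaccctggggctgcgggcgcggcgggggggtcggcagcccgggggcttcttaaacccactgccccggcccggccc

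The Fhl1 stretch holds a CArG box, CCTAAAATGG, that begins 102 bases before the start. Both Fhl2 starts hold a CArG box, CCAAAAAAGG at 96 bases and CCTTATATGG at 31 bases before the start, and the first of them also has a MEF2 site, TTATTTATAA, at 31 bases. Xirp2 has a MEF2 site, CTAAAAATAG, at 74 bases. Flnc has an M-CAT element at 104 bases before its second start, the start whose stretch is printed. The overlapping window of the first Flnc start includes the same element, but there it spans the start, from position -1 to 4. No printed match overlaps a match to another motif. Among all 32817 windows of this length, 1.63% hold a CArG box, 3.19% a MEF2 site and 14.7% an M-CAT element. In the windows of Csrp3, Actn2 and Des and in the other Fhl1 window, these letters were not found. A match describes the sequence alone: a CArG box stands before Fhl1, which rose, and before Fhl2, which did not pass the test.

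The LIM domain genes differed from each other. Fhl1, whose protein binds titin and is known to rise in hypertrophied hearts, read 11.20, 11.15, 11.08, 11.03 and 11.10 in vehicle-labelled arrays 1 to 5. It read 11.69, 11.83, 11.82, 11.71 and 11.61 in tamoxifen-labelled arrays 1 to 5. Every tamoxifen-labelled value lay above the vehicle-labelled range. The rise was 0.62 ± 0.055 (SE, n = 5 per group), or 1.54-fold, with a limma adjusted p of 5.08e-07. Fhl1 is X-linked in the mouse, and the Xist signal was between 11.55 and 11.82 in all 10 arrays.

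Fhl2, a relative of Fhl1 that also binds titin and acts as a coregulator of transcription, read 12.96, 13.06, 13.05, 12.94 and 12.85 in the vehicle-labelled arrays. The tamoxifen-labelled arrays gave 12.95, 13.08, 12.96, 12.87 and 12.97, so the groups lay over each other. Its log2 fold change was -0.0060 ± 0.055 (limma adjusted p = 0.956), with a 95% interval from -0.123 to 0.111. That interval does not reach the lower bound of the interval for Fhl1, 0.503.

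Csrp3 encodes MLP, a Z-disc protein whose loss is known to cause dilated cardiomyopathy in mice. It read 12.75, 12.85, 12.72, 12.72 and 12.73 in the vehicle-labelled arrays and 12.79, 13.04, 12.81, 12.95 and 12.92 in the tamoxifen-labelled arrays. Tamoxifen-labelled arrays 1 and 3 lay below vehicle-labelled array 2, so the groups overlapped. The log2 fold change was 0.148 ± 0.056 and did not pass (limma adjusted p = 0.0699). This call depends on the setting: Csrp3 passed in 6 of 19 alternatives, with adjusted p from 0.00819 to 0.144 over all of them, among them the fit without tamoxifen-labelled array 1 (adjusted p = 0.0475).

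Among the actin-binding and titin-capping proteins of the Z-disc, the crosslinker rose and the cap fell. Actn2, sarcomeric alpha-actinin, read 13.54, 13.57, 13.55, 13.54 and 13.55 in the vehicle-labelled arrays, the narrowest spread among the 10 genes (SD 0.012). It read 13.74, 13.76, 13.71, 13.78 and 13.68 in the tamoxifen-labelled arrays. No value of one group entered the range of the other, although the rise of 0.184 ± 0.044 (limma adjusted p = 0.00625) was the smallest that passed among these genes.

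Tcap, the gene of telethonin, read 11.17, 10.93, 11.00, 10.88 and 10.70 in the vehicle-labelled arrays. It read 10.41, 10.55, 10.42, 10.91 and 10.38 in the tamoxifen-labelled arrays, so that array 4 lay within the vehicle-labelled range and the other 4 below it. The log2 fold change was -0.402 ± 0.098, a change of -24.3% in signal (limma adjusted p = 0.00748). Without tamoxifen-labelled array 4, Tcap fell by 0.496, with an adjusted p of 0.000365. Tcap had the widest spread of the 10 genes in both groups (SD 0.172 and 0.220).

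Nexn, the gene of nexilin, read 11.57, 11.42, 11.45, 11.58 and 11.52 in the vehicle-labelled arrays and 11.78, 11.97, 11.79, 11.87 and 12.18 in the tamoxifen-labelled arrays. All tamoxifen-labelled values were above the vehicle-labelled ones, with array 5 the highest. The rise was 0.410 ± 0.071, or 1.33-fold (limma adjusted p = 0.000527). Without tamoxifen-labelled array 5 it was 0.345, with an adjusted p of 0.000706.

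Flnc encodes filamin C, the filamin of striated muscle, which crosslinks actin at Z-discs and intercalated discs. It read 10.88, 10.93, 10.85, 10.57 and 10.74 in the vehicle-labelled arrays and 11.21, 11.23, 11.19, 11.09 and 11.01 in the tamoxifen-labelled arrays. The closest values of the groups were 0.080 apart. The rise of 0.352 ± 0.068, or 1.28-fold, passed with a limma adjusted p of 0.00146. The low value of vehicle-labelled array 4 did not decide it: without that array the rise was 0.296 (adjusted p = 0.00244).

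The Xin genes both rose. Xirp1 read 10.64, 10.68, 10.51, 10.53 and 10.84 in the vehicle-labelled arrays and 10.98, 11.03, 10.79, 11.16 and 11.06 in the tamoxifen-labelled arrays. Only tamoxifen-labelled array 3 fell below a vehicle-labelled value, that of array 5. Its rise was 0.364 ± 0.073 (limma adjusted p = 0.00196). Xirp2 read 11.43, 11.49, 11.49, 11.56 and 11.48 in the vehicle-labelled arrays and 11.70, 11.84, 11.68, 11.81 and 11.75 in the tamoxifen-labelled arrays, with no overlap. Its rise was 0.266 ± 0.049 (limma adjusted p = 0.000981).

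Des, the gene of the muscle intermediate filament protein desmin, was not called. It read 13.24, 13.20, 13.18, 13.24 and 13.23 in the vehicle-labelled arrays and 13.11, 13.23, 13.15, 13.17 and 13.14 in the tamoxifen-labelled arrays, so 4 of 5 tamoxifen-labelled values lay below all vehicle-labelled ones. The log2 fold change was -0.058 ± 0.045 (limma adjusted p = 0.392), with a 95% interval from -0.153 to 0.0368.

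**Figure D2:**
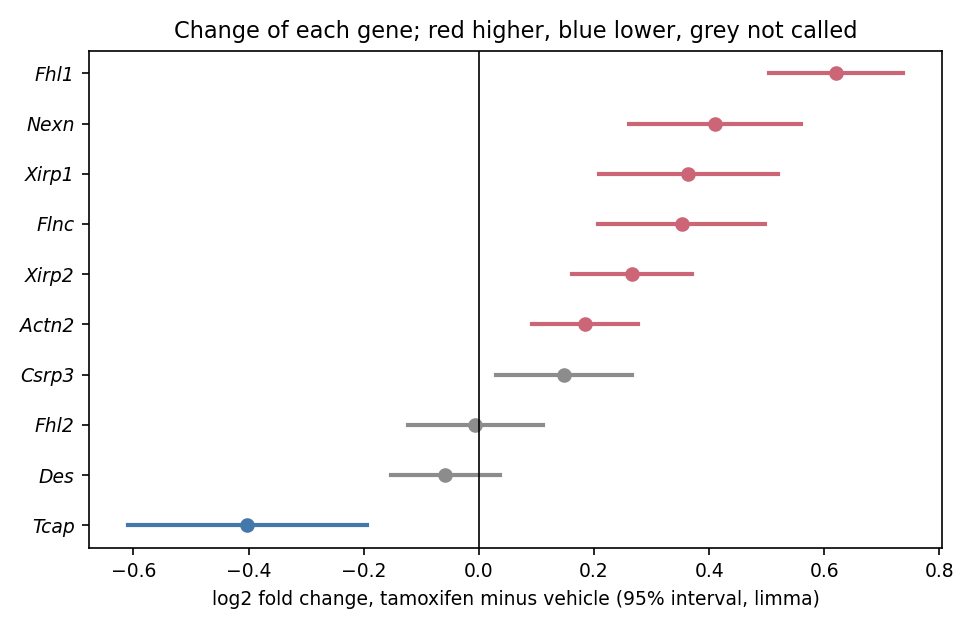
Log2 fold change of each gene, tamoxifen-labelled minus vehicle-labelled, with its 95% interval from limma (n = 5 arrays per group); red genes rose, blue genes fell and grey genes did not pass at an adjusted p of 0.05. The values run from -0.402 for Tcap to 0.62 for Fhl1, and the interval of Csrp3 lies above 0 although its adjusted p missed the threshold.

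Responses were compared within 3 pairs, as the difference of the log2 signals in each array, with p-values adjusted over the 3 pairs. Only how that difference changed between groups was read. The Fhl1 minus Fhl2 difference rose by 0.626 ± 0.059 (SE; exact two-sided permutation p = 0.00794, adjusted p = 0.0119), and its groups did not overlap. No smaller p can be reached with 5 arrays a group. The Csrp3 minus Tcap difference, between an MLP and a telethonin gene whose proteins bind each other at the Z-disc, rose by 0.55 ± 0.12 (exact p = 0.00794, adjusted p = 0.0119), with the closest values of the groups at 2.03 and 2.04. For the Xin genes, the Xirp1 minus Xirp2 difference changed by 0.098 ± 0.083 (exact p = 0.270, adjusted p = 0.270), and the groups overlapped. All 3 pairs were chosen with earlier results of these genes known, so these p-values are no independent support, and the Csrp3 minus Tcap change combines the fall of Tcap (-0.402) with the uncalled 0.148 of Csrp3.

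**Figure D3:**
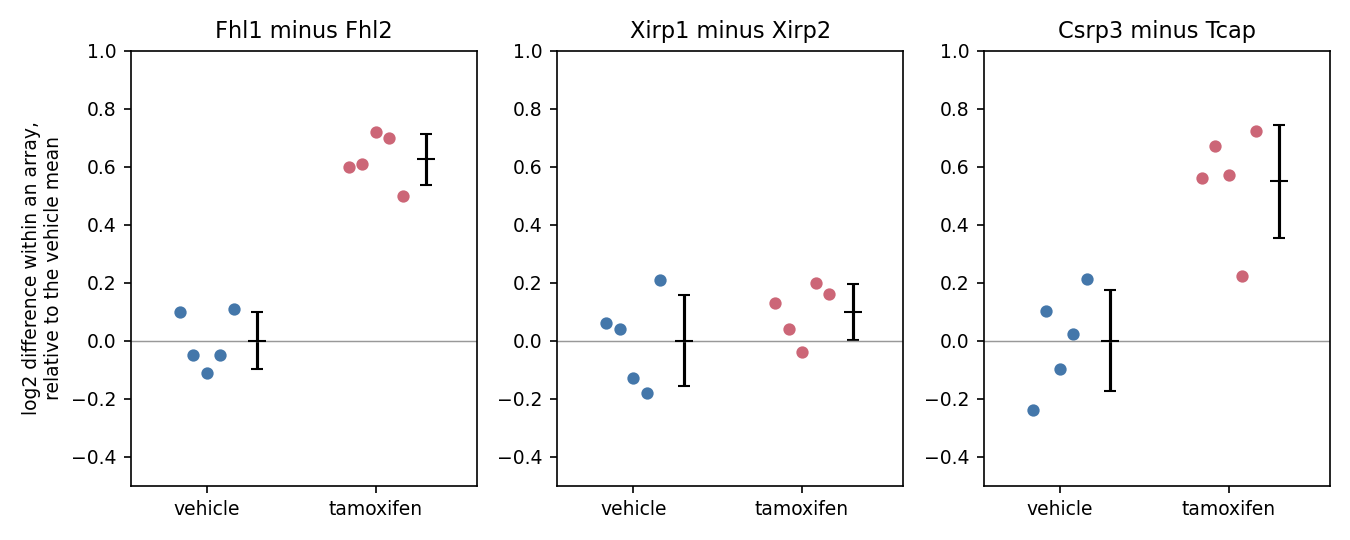
Difference of the log2 signals of the pair within each array, shown relative to the vehicle-labelled mean of that pair, 1 point per array, with mean ± SD (n = 5) in black; blue is vehicle-labelled and red tamoxifen-labelled. The tamoxifen-labelled points lie above all vehicle-labelled ones for Fhl1 minus Fhl2 and, by a narrow gap, for Csrp3 minus Tcap, and overlap them for Xirp1 minus Xirp2.

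No array carried the rises alone. Tamoxifen-labelled array 2 was the highest of its group in 6 of the 10 genes, and its mean deviation from the group mean was 0.071 over the 10 genes, against a median deviation of 0.11 over all genes tested. Tamoxifen-labelled array 5 was the lowest of its group in 4 of the genes and the highest in 1. Without array 2 the same 6 genes rose and Tcap fell, with a median log2 fold change of 0.211 over the 10 genes.

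Other genes listed with the Z-disc were higher wherever they were called. This list and those below were also chosen with earlier results of these data known, so their counts describe the lists only. Of 39 further genes on a broad Z-disc list, 37 were tested, with a median log2 fold change of 0.146. Of these, 19 rose, 0 fell and 18 were not called, beside 13.6% of all genes tested higher and 8.28% lower. The number that rose ran from 13 to 20 over the alternatives. The list also holds genes whose proteins are not confined to the Z-disc, such as Myom1, Jph2, Rcan1 and Cavin4. The PDZ and LIM protein gene Pdlim7 rose by 0.526 ± 0.061 (limma adjusted p = 9.56e-06) and its relative Pdlim5 by 0.292 ± 0.048. Ldb3, whose protein ZASP binds alpha-actinin, rose by 0.26 ± 0.050. Ankrd1, a titin-bound repeat protein known to rise with stretch, read 12.93, 13.23, 13.05, 12.85 and 13.09 in the vehicle-labelled arrays and 13.49, 13.51, 13.31, 13.51 and 13.37 in the tamoxifen-labelled arrays, a rise of 0.408 ± 0.069 with no overlap. The small heat shock protein gene Hspb1 rose by 0.502 ± 0.054 and the cochaperone gene Bag3 by 0.268 ± 0.058. The highest limma adjusted p among these 6 genes, those with the smallest p of the list, was 0.00336. Relatives of Pdlim7 and Ankrd1, named after their values were seen, were mixed. Pdlim3 rose by 0.216 (adjusted p = 0.00857). Pdlim1 (0.034, adjusted p = 0.746), Ankrd2 (-0.102, adjusted p = 0.269) and Ankrd23 (0.198, adjusted p = 0.0747) were not called.

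Genes of the intercalated disc and the costamere, which ties Z-discs to the cell membrane, had calls in both directions. Of 32 genes, 30 were tested, 8 rose and 2 fell, with a median of 0.077, beside 13.6% of all genes tested higher and 8.28% lower. Those that fell were the desmosomal cadherin genes Dsc2 (-0.332 ± 0.055, limma adjusted p = 0.000361) and Dsg2 (-0.268 ± 0.062, adjusted p = 0.00534). Dsc2 read 9.46, 9.35, 9.31, 9.22 and 9.28 in the vehicle-labelled arrays and 8.97, 9.11, 8.96, 8.98 and 8.94 in the tamoxifen-labelled arrays, with no overlap, while Dsg2 touched at 9.66 in vehicle-labelled array 4 and tamoxifen-labelled array 4. The inner desmosome genes Dsp (0.0060), Jup (0.0060) and Pkp2 (-0.014), named after their values were seen, did not pass, and the sign of each turned in some alternatives. The dystroglycan gene Dag1 rose by 0.252 ± 0.046, dystrophin Dmd by 0.172 ± 0.046, the connexin gene Gja1 by 0.244 ± 0.059 and talin 2 Tln2 by 0.178 ± 0.050. Tln2 lost its call without tamoxifen-labelled array 1 (adjusted p = 0.0567, range 0.00822 to 0.0567 over all alternatives). The count of 8 became 4 without tamoxifen-labelled array 1 or 4 and 5 without vehicle-labelled array 4, so nothing particular to the list is read from its counts.

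Genes known to respond to stretch included the largest rises among these lists. Of 20, 18 were tested, 11 rose and 0 fell, with a median of 0.381, beside 13.6% of all genes tested higher and 8.28% lower. The number that rose ran from 9 to 14 over the alternatives. Of the 20, 5 also stand in the Z-disc list, and the rises of Ankrd1, Rcan1 and Lmcd1 are counted in both. Skeletal alpha-actin Acta1 rose by 1.08 ± 0.067, the transcription factor gene Egr1 by 1.36 ± 0.12, the growth factor gene Hbegf by 0.79 ± 0.094, Ccn1 by 0.58 ± 0.074 and the matrix gene Tnc by 0.68 ± 0.10. Acta1 read 12.63, 13.02, 12.91, 12.85 and 13.02 in the vehicle-labelled arrays and 13.98, 13.91, 13.96, 13.95 and 14.01 in the tamoxifen-labelled arrays. The groups did not overlap. The highest limma adjusted p of these 5 genes was 0.000175. Matrix genes such as Tnc are also made by fibroblasts.

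Of 14 paralogues of the 10 genes, 12 were tested, 4 rose and 0 fell, with a median of 0.123, beside 13.6% of all genes tested higher; the count fell to 1 in some alternatives, so nothing is read from it about the list. Non-muscle alpha-actinin Actn1 rose by 0.246 ± 0.052 (limma adjusted p = 0.00266); its muscle relative Actn2 rose by 0.184, and the difference was not tested. The rises of Actn4 (0.194, adjusted p = 0.0242), filamin A Flna (0.19, adjusted p = 0.0417) and vimentin Vim (0.15, adjusted p = 0.0405) were lost in 4, 8 and 8 of 19 alternatives, with adjusted p up to 0.0605, 0.0985 and 0.10. The count of 4 became 1 with no filter and without vehicle-labelled array 4 or tamoxifen-labelled array 1, and 2 without vehicle-labelled array 2 or tamoxifen-labelled array 2 or 5. Fhl4 (0.206, adjusted p = 0.115) and Csrp2 (-0.12, adjusted p = 0.149) did not pass.

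**Figure D4:**
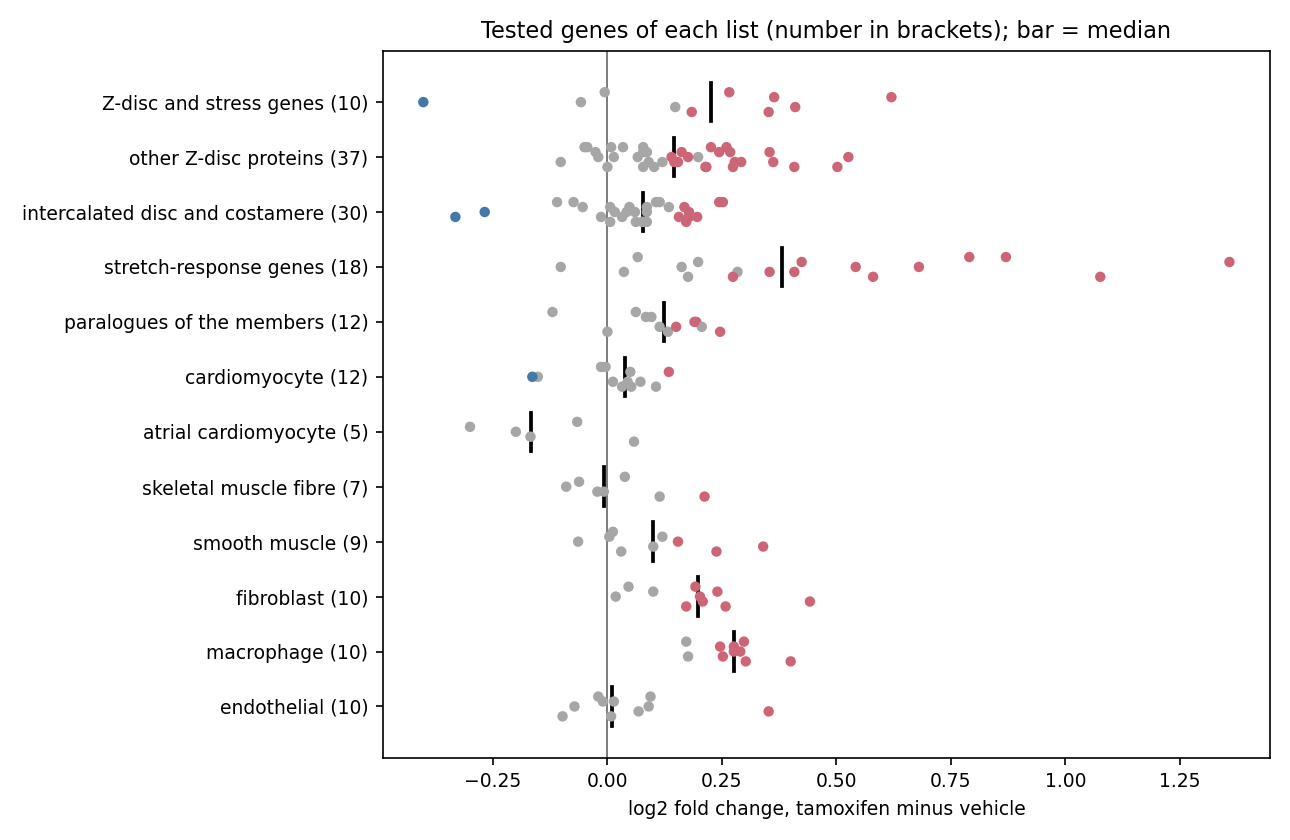
Log2 fold change of each tested gene by list, 1 point per gene, red where it rose, blue where it fell and grey where it did not pass at a limma adjusted p of 0.05; the black bar is the median of the list. The medians are 0.225 for the 10 Z-disc and stress genes, 0.146 for the broad list of other Z-disc genes and 0.381 for stretch-response genes. Cardiomyocyte markers have a median of 0.038. Some, such as Actc1 at 14.56 in the vehicle-labelled mean, lie near the highest signals of the arrays. Whether this limits their change was not tested.

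Markers of some other cells were also higher in the tamoxifen-labelled hearts. Over all genes tested, 13.6% were called higher and 8.28% lower, and nothing is read from counts of 0 or 1 in a list. Among macrophage markers, 8 of 10 rose, and their mean level ran from 8.78 to 8.99 in the vehicle-labelled arrays and from 9.01 to 9.28 in the tamoxifen-labelled arrays. Of 10 fibroblast markers 7 rose, with mean levels from 9.88 to 10.03 and from 10.09 to 10.31. Of 9 markers of smooth muscle, whose cells also make desmin, 3 rose (1 with no dim filter), with mean levels from 9.47 to 9.52 and from 9.55 to 9.70. Synpo2, among these 3, also stands in the Z-disc list. Of 10 endothelial markers 1 rose and 0 fell. Of 12 cardiomyocyte markers 1 rose and 1 fell, with mean levels from 13.84 to 13.87 and from 13.85 to 13.88. These counts ran from 0 to 2 over the alternatives: the rise was lost when any single array other than tamoxifen-labelled array 2 was left out, and the fall without vehicle-labelled array 1, 3 or 5 or tamoxifen-labelled array 5. Skeletal muscle markers were dim: 5 of 12 lay below the filter, 1 of 7 tested rose, and the fast myosin genes Myh4 and Myh1 averaged 5.87 and 5.95. Of the 5 tested atrial markers 0 were called by limma, and 1 was called lower without tamoxifen-labelled array 5. Their mean level spread widely within the tamoxifen-labelled group, from 8.47 to 9.38, against 8.95 to 9.08 in the vehicle-labelled group, and the atrial light chain gene Myl7, named after its values were seen, ran from 8.81 to 10.54 and from 9.70 to 10.04. The part of these cells in the changes above was not tested.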

How the data were processed

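Values of 1 array per mouse were analysed, 5 per group, as grouped in the labels. The deposited table holds log2 signals, which the authors made with RMA; the submitters' processing notes name Affymetrix Expression Console, version 1.1. The table has no detection calls. Of 35556 probe sets, 21789 had 1 gene symbol in the platform annotation. The brightest probe set of a gene was used, and the dimmest 30% (log2 cutoff 6.53) were left out, leaving 13957 genes. Groups were compared by the two-sided moderated test of limma 3.58.1 (R 4.3.3), with Benjamini-Hochberg adjustment over all tested genes and a threshold of 0.05. Pairs were compared with exact permutation tests in scipy 1.17.1. The code was tested on simulated data. The number of arrays limits the precision, and the median residual SD was 0.094. A single probe set does not separate isoforms. The 10 genes, the lists and the pairs were chosen with earlier results of these data known. Named genes are the 10, up to 6 genes with the smallest p of each gene list, markers and exceptions stated as such. The 19 alternatives were each array left out in turn, no dim filter or one at 50%, median centring, quantile normalization, weights per array, a prior that is trended and robust, a block for replicate number, averaging the probe sets of a gene, and keeping those annotated to several genes. Promoter windows come from RefSeq. Figures used matplotlib 3.10.9.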

Additional observations from a re-analysis of the deposited data

Results flagged for a closer look

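Csrp3 in vehicle-labelled array 2 stood apart from the rest of its group: its value of 12.85 was followed by 12.75, a gap that is 0.769 of the range of the 5 vehicle-labelled values. It was the only such case among the 20 groups of 5 values of the 10 genes, and chance alone gives about 1 in 20. Without this array the log2 fold change of Csrp3 was 0.172, with a limma adjusted p of 0.0534, against 0.148 and 0.0699 with it.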

How the results depend on the processing

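The 7 calls among the 10 genes held under all 19 alternatives, with 6 rises and the fall of Tcap in each; Csrp3 joined them in 6. Without each array in turn, Fhl2 ran from -0.0365 to 0.018 around 0. Of 190 values of the 10 genes, 181 kept their direction and their side of the threshold, 6 (Csrp3) crossed it and 3 (Fhl2) changed sign. With array weights 1784 genes were lower, against 1155; counts of all genes higher ran from 1424 to 2458. Same-numbered arrays of the groups correlated in their deviations from the group means at 0.037 to 0.203. Over 0.1 was required of every pair and reached in 3 of 5, so the numbers were not taken as pairs, although 4 of 5 vehicle-labelled arrays were closest to the array of their number, a hint of pairing from the data. With the replicate number as a block, 2225 genes were higher and 1297 lower and Csrp3 passed (adjusted p = 0.0427). The pair differences under the block, Fhl1 minus Fhl2 at 0.626 and Csrp3 minus Tcap at 0.55, had adjusted p = 0.0938 in an exact sign-flip test, whose smallest p with 5 pairs is 0.0625 before adjustment. Genes near 0 changed sign: with array weights and with quantile normalization Emcn (-0.022 and -0.0077), Dsp (-0.0019 and -0.020) and Jup (-0.025 and -0.028), and with quantile normalization Hspb8 (-0.015). Without each array in turn, Emcn ran from -0.0175 to 0.035, Dsp from -0.016 to 0.034, Jup from -0.026 to 0.044 and Pkp2 from -0.0615 to 0.0335. The cause was not tested. Signal over background was not measured; the lowest group mean of the 10 genes, 10.53, lay above the cutoff of 6.53.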

Other observations

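Values of chaperones and ubiquitin ligases from the Z-disc list follow, grouped after they were seen and with no test between the genes. BAG3 is known to work with small heat shock proteins and synaptopodin 2 in the turnover of filamin C. Bag3 read 11.56, 11.63, 11.52, 11.64 and 11.73 in the vehicle-labelled arrays and 11.91, 11.75, 11.82, 11.94 and 12.00 in the tamoxifen-labelled arrays, with no overlap. Synpo2 rose by 0.154 ± 0.047 (limma adjusted p = 0.0260), a call lost in 4 of 19 alternatives, among them the fits without vehicle-labelled array 1 or 2 or tamoxifen-labelled array 1 (adjusted p from 0.00530 to 0.0672 over all). Hspb7 rose by 0.146 ± 0.045 (adjusted p = 0.0292) and lost its call in 8 of 19, quantile normalization, no filter and the fits without vehicle-labelled array 1, 2 or 3 or tamoxifen-labelled array 3, 4 or 5 (adjusted p from 0.000497 to 0.141 over all). Hspb8, the partner of BAG3 in this turnover, was not called at 0.014 ± 0.046 (adjusted p = 0.867), and alpha-B-crystallin Cryab, which binds desmin, was not called at 0.086 ± 0.046 (adjusted p = 0.207).

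The muscle RING finger genes encode ubiquitin ligases. Trim54 read 10.06, 10.16, 10.03, 9.96 and 10.05 in the vehicle-labelled arrays and 10.23, 10.40, 10.12, 10.43 and 10.30 in the tamoxifen-labelled arrays, a rise of 0.244 ± 0.062 (limma adjusted p = 0.00991) with 4 of 5 tamoxifen-labelled values above all vehicle-labelled ones. Trim63, known for its rise in wasting muscle, was not called at 0.078 ± 0.062 (adjusted p = 0.411), nor was Trim55 at -0.05 ± 0.052 (adjusted p = 0.544). The natriuretic peptide genes, also named after their values were seen, rose without overlap of the groups: Nppa by 0.424 ± 0.072 (adjusted p = 0.000461) and Nppb by 0.87 ± 0.15 (adjusted p = 0.000645).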
